A study of Brassica napus with 12 samples.

Results

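The genes described here carry the NB-ARC domain typical of intracellular immune receptors and were expressed in the shoot apex of rapeseed (Brassica napus). For 4 of them, named below, the protein match does not show a receptor. They were selected on their measured level, as the genes whose Pfam entry is the NB-ARC domain and whose mean level reached 1 CPM (counts scaled by TMM to library size) in at least 1 of 4 groups of libraries. Of 100919 genes in the deposited table, 126 carry the NB-ARC entry, and 41 of them met the level. Of the others, 48 had counts but stayed below the level, and 37 had 0 counts in all 12 libraries.

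RNA came from whole apical meristems, taken when differentiating inflorescence primordia begin to form floral primordia. SX3 is labelled a natural mutant and ZS11 the wild type. Slike and Zlike are individuals of a second backcross, with Slike labelled mutant and Zlike wild type, and each of the 4 groups has 3 libraries. The plants grew at an experimental station without treatment. The labels name neither the recurrent parent of the backcross nor the number of plants in a library. The p-values therefore set a difference between groups only against the scatter among libraries, and part of that scatter may be technical. SX3 and ZS11 are separate lines, so the allele behind the mutant type cannot be told apart from the rest of their genetic background. The genome used for counting is not given in the sources used here, and whether reads of SX3 alleles aligned as often as reads of ZS11 alleles was not tested.

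Receptors with an NB-ARC domain are molecular switches: bound to ADP they are held inactive, and exchange for ATP after an effector of a pathogen is sensed lets them assemble and trigger defence, often with local cell death. Most carry leucine-rich repeats behind the switch and, before it, either a TIR domain, which signals through the lipase-like protein EDS1 and its partners PAD4 and SAG101, or a coiled coil. A small class with an RPW8-like front domain, ADR1 and NRG1, acts as helpers for the sensor receptors. In plants these genes are often arranged in tandem clusters, differ widely between lines of a species, and are kept at low transcript levels, since excess receptor activity can stunt growth.

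Total counts lay between 13445924 and 17778731 per library, so that 3 counts, taken as the limit that a count of 0 allows, equal 0.174 to 0.220 CPM. This limit covers counting error only. Members had a median of 31 counts per library. Genes that mark the shoot meristem summed to 350 to 361 CPM in SX3, 432 to 444 in ZS11, 249 to 259 in Slike and 292 to 301 in Zlike. Their levels did not all go one way: STM averaged 147 CPM in SX3 against 268 in ZS11, while KNAT1, at 130 CPM in SX3 against 89.5 in ZS11, WUS and CLV3 had higher means in SX3. Floral primordium markers differed between the groups, with library sums of 90.5 to 92.8 CPM in SX3, 8.93 to 9.71 in ZS11, 248 to 254 in Slike and 52.9 to 63.5 in Zlike, where AP1 copies with another match name are not included and LFY was at or near 0. The differences lay mostly in AP3 and PI. AP3 averaged 39.4 CPM in SX3, 1.58 in ZS11, 113 in Slike and 21.7 in Zlike. In the same order PI averaged 41.4, 1.53, 114 and 21.7 CPM, and AP1 8.41, 6.10, 14.8 and 12.6 CPM. Green leaf markers summed to 1128 to 1161 CPM in SX3, 3281 to 3304 in ZS11, 2045 to 2074 in Slike and 1681 to 1756 in Zlike, with RBCS-1A at or near 0. Vascular markers summed to 188 to 191 CPM in SX3, 246 to 257 in ZS11, 178 to 182 in Slike and 202 to 208 in Zlike. The lower sums in SX3 and Slike were those of the 32 genes matched to APL (149 CPM in SX3 and 224 in ZS11, 150 in Slike and 182 in Zlike). The means of SUC2, XCP1, CESA7 and NAC030 were higher in the mutant type of both pairs, as for CESA7 with 21.6 CPM in SX3 and 16.3 in ZS11, and 18.1 in Slike and 15.2 in Zlike. Anther markers lay at 32.6 to 36.9 CPM in Slike and at most at 2.33 CPM in the other groups, with MS1 at 0 in all groups. The part of these tissue differences in the results below was not tested, and in bulk tissue fewer cells of a type and less RNA per cell cannot be told apart.

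A smaller share of the NB-ARC genes than of all genes was expressed at the level. Of the NB-ARC genes, 32.5% reached the level, against 49.4% of all genes in the table. Another 362 genes are named disease resistance proteins by their best match but carry another Pfam entry or none, and 119 of these (32.9%) reached the level. Members were longer, under a level that is not set per length, with a median deposited length of 1827 bases against 915 for the other NB-ARC genes. By best protein match, 35 of the 41 members are named disease resistance proteins. A further 2 match the tobacco virus receptor N, 2 match a homolog of ROOT HAIR DEFECTIVE 3 that is not a receptor (At1g72960), and 2 have no match. The table gives a single Pfam entry per gene, so the front domains were taken from the matched protein. By that assignment 13 of 49 TIR genes, 15 of 58 coiled-coil genes, 4 of 5 RPW8-class genes and 9 of 14 unassigned genes were members.

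Per length, most members lay near the bottom of the range of expressed genes. Averaged over the 4 groups, the median was 1.18 FPKM (counts per gene length and library total, as deposited) against 7.36 FPKM for all genes at the level. The members ranged from 0.199 to 45.4 FPKM, with 14 under 1, 21 between 1 and 5, and 6 above 5. The median was 1.05 FPKM for TIR members, 1.04 for coiled-coil members and 2.54 for RPW8-class members. The 6 genes above 5 FPKM held 61.1% of the members' summed CPM in SX3, 64.1% in ZS11, 66.9% in Slike and 68.3% in Zlike. Just inside the level were BnaC09G0544400ZS (RPP1 by match) at 1.15 CPM in its highest group, BnaC02G0349900ZS (N) at 1.18 and BnaC04G0394800ZS (RPS6) at 1.27. Just outside were BnaA02G0203700ZS at 0.870, BnaC08G0216000ZS at 0.843 and BnaC02G0223500ZS at 0.840 CPM.

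**Figure D1:**
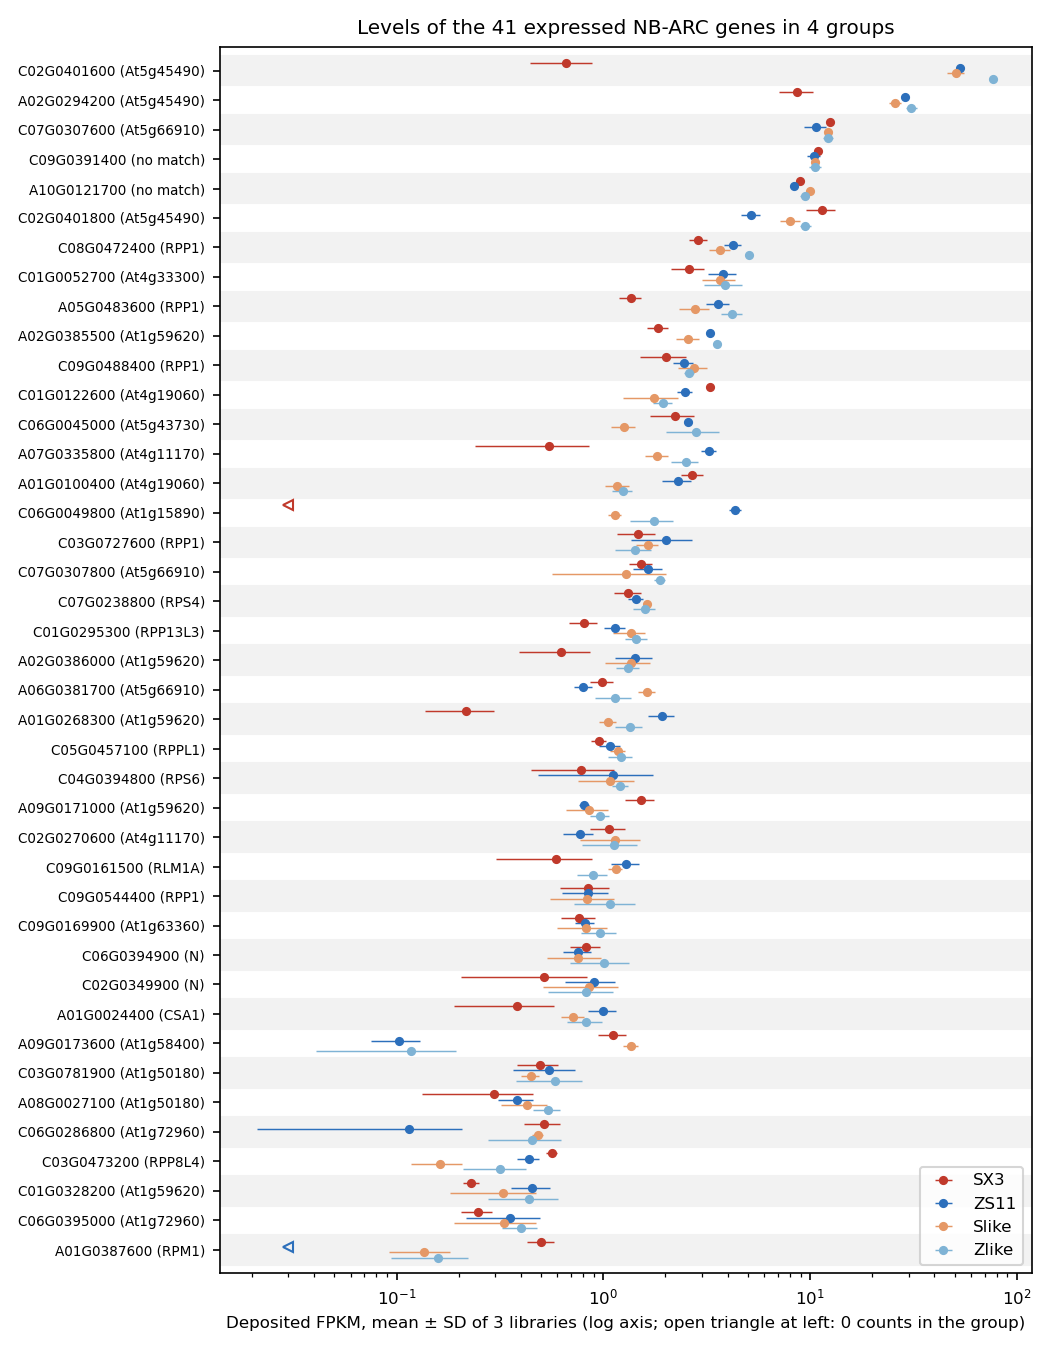
Mean deposited FPKM (log axis) of each of the 41 expressed NB-ARC genes in SX3, ZS11, Slike and Zlike, with bars for the SD of 3 libraries and open triangles where a group had 0 counts. The 6 genes at the top exceed 5 FPKM on average, and the SX3 point of BnaC02G0401600ZS stands far left of its other 3 groups.

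The highest gene was BnaC02G0401600ZS (C02, 49516351 to 49517493), matched to At5g45490, with 45.4 FPKM on average, followed by BnaA02G0294200ZS (A02, 26212870 to 26214000) of the same match with 23.5 FPKM. All 3 genes with this match were members. Next came the NRG1-type helper BnaC07G0307600ZS with 11.9 FPKM and the 2 genes without a protein match, BnaC09G0391400ZS with 10.6 and BnaA10G0121700ZS with 9.17 FPKM. The third At5g45490 gene, BnaC02G0401800ZS, followed with 8.53. The list of 10 was completed by BnaC08G0472400ZS (RPP1) at 3.96, BnaC01G0052700ZS (At4g33300, the ADR1-type helper ADR1-L1 in Arabidopsis) at 3.49, BnaA05G0483600ZS (RPP1) at 2.99 and BnaA02G0385500ZS (At1g59620) at 2.81 FPKM. RPP1 in Arabidopsis is a TIR receptor that binds an effector of downy mildew.

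Across the groups, 24 members reached the level in all 4 groups, 12 in 3, 3 in 2 and 2 in a single group. By group, 29 members reached it in SX3, 37 in ZS11, 36 in Slike and 38 in Zlike. The summed level of all 126 NB-ARC genes was 208 ± 4.06 CPM in SX3, 316 ± 6.70 in ZS11, 299 ± 4.83 in Slike and 345 ± 4.82 in Zlike (SD, n = 3 each). Without the 3 At5g45490 genes the members summed to 179 ± 5.27 CPM in SX3, 206 ± 6.82 in ZS11, 197 ± 2.21 in Slike and 206 ± 4.41 in Zlike, so most of the gap of SX3 to ZS11 and of Slike to Zlike lay in those 3 genes. TIR genes summed to 32.2 ± 2.92 CPM in SX3 and 50.7 ± 2.24 in ZS11, and to 44.0 ± 0.501 in Slike and 51.5 ± 1.89 in Zlike. Coiled-coil genes summed to 34.0 ± 0.743 CPM in SX3 and 50.6 ± 1.23 in ZS11, and to 41.4 ± 0.943 in Slike and 45.6 ± 1.37 in Zlike. The helper class summed to 32.2 ± 1.62 CPM in SX3, 30.4 ± 2.04 in ZS11, 34.7 ± 0.943 in Slike and 33.6 ± 1.38 in Zlike.

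The first comparison set the mutant line SX3 against ZS11. Few of the NB-ARC genes were called higher in SX3, and the share called lower was close to that of all genes. The most abundant one, BnaC02G0401600ZS, was nearly lost, 1 coiled-coil gene had no counts, and 6 of 13 TIR members were called lower and none higher. Calls were made by edgeR's quasi-likelihood test, at a Benjamini-Hochberg adjusted p under 0.05 taken over all genes tested. Of the 41 members, 21 were called (51.2%), 6 higher (14.6%) and 15 lower (36.6%) in SX3. Over all 50035 genes tested 69.3% were called, 33.4% higher and 35.9% lower. Past a fold of 2, 4 members were higher and 10 lower, against 10.5% and 15.8% of all genes. The median log2 fold change of the members was -0.26, and that of all genes -0.01. The libraries of the groups did not overlap for 23 of the 41 members (56.1%), against 70.7% of all genes. Since levels in these libraries were part of the choice of members, the 39 that reached the level in Slike or Zlike were counted on their own: 20 were called (51.3%), 5 higher and 15 lower. The share called is below that of all genes. The median level of members was 2.25 CPM, against 8.89 CPM for all genes at the level, and whether this bears on the share called was not tested.

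The second comparison set Slike against Zlike. Fewer members were called here. BnaA09G0173600ZS was strongly higher in Slike as it was in SX3, the At5g45490 gene BnaC02G0401600ZS was lower in both mutant types, and BnaC06G0045000ZS and the helper gene BnaA06G0381700ZS were called in this pair and not between the lines. For the helper gene the effects in the pairs were not called apart (edgeR adjusted p = 0.394). Of 39 members tested, 9 were called (23.1%), 2 higher and 7 lower in Slike, where 27.2% of 49526 genes were called, 13.8% higher and 13.4% lower. Past a fold of 2, 1 member was higher and 1 lower, against 3.6% and 0.61% of all genes. The median log2 fold change was -0.17 for the members, and groups did not overlap for 11 of 39, against 37.9% of all genes. Of the 40 members that reached the level in SX3 or ZS11, 38 were tested and the same counts were found, 9 called with 2 higher and 7 lower. Genes called in both comparisons numbered 7, all in the same direction. They were 33.3% of the members called between the lines and 77.8% of those called between the backcross classes. Over the 48315 genes tested in both, the matching shares were 33.3% and 85.7%, and 85.7% of the shared calls went in the same direction, so the overlap of the members was close to that of all genes. The comparisons share no library.

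**Figure D2:**
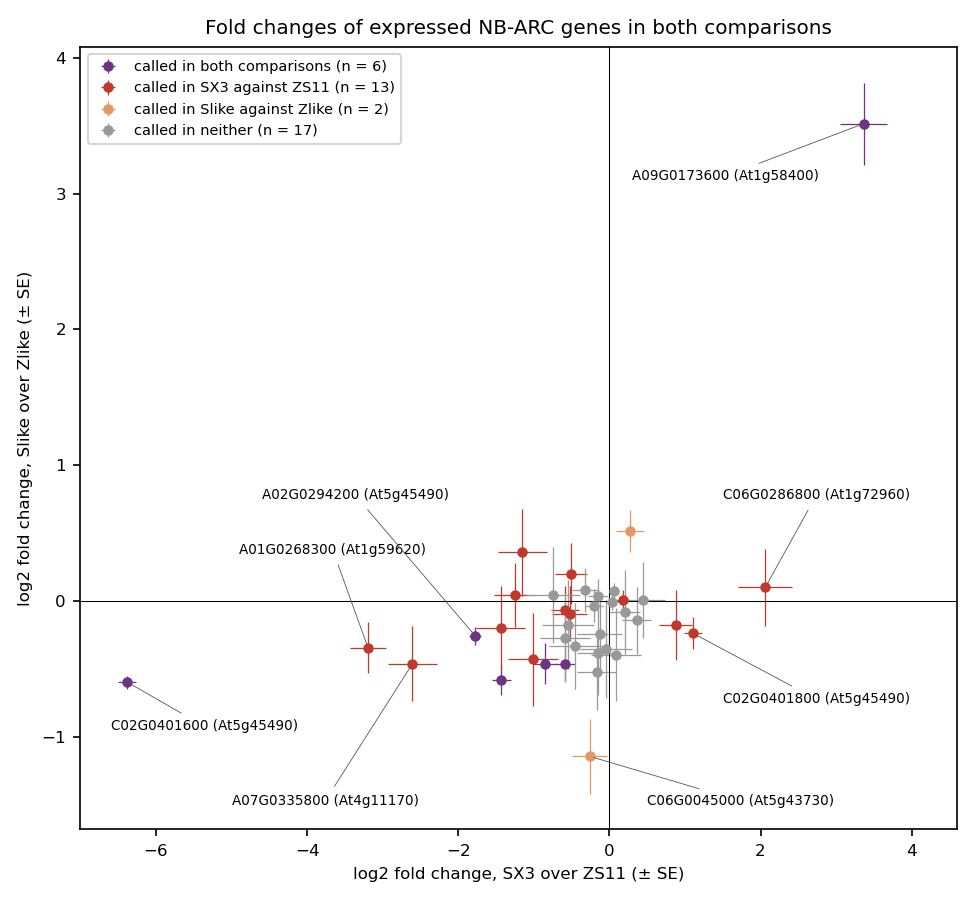
Log2 fold change of 38 expressed NB-ARC genes in SX3 over ZS11 (x axis) and in Slike over Zlike (y axis), with SE bars, coloured by the comparisons in which edgeR called them. The 3 members left out have 0 counts in SX3 or ZS11 or were too low to test in the backcross. A single gene, BnaA09G0173600ZS, lies far from 0 on both axes, at 3.36 and 3.51.

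BnaA09G0173600ZS (A09, 11340140 to 11354880, plus strand), a coiled-coil receptor gene matched to At1g58400, differed strongly in both pairs. It had 3.09, 4.03 and 4.18 CPM in the SX3 libraries, against 0.465, 0.323 and 0.281 CPM in the ZS11 libraries. In the backcross it had 4.53, 4.83 and 4.11 CPM in Slike, against 0.138, 0.382 and 0.646 CPM in Zlike. Every SX3 and Slike library lay above every ZS11 and Zlike library. The log2 fold change was 3.36 ± 0.31 (SE, edgeR adjusted p = 1.64e-19) for SX3 over ZS11 and 3.51 ± 0.30 (adjusted p = 2.45e-19) for Slike over Zlike. The test of the difference of these effects did not call them apart (log2 0.15 ± 0.56, adjusted p = 0.841), with an SE that leaves room for a sizeable gap. Of its 20 nearest tested genes outside the NB-ARC set, 10 on each side, 3 were called at least 2-fold higher and 1 lower in SX3, with a median log2 of 0.16. In Slike 1 was higher and none lower, with a median of -0.05. Over all genes tested, the shares to set beside such neighbour counts were 10.5% higher and 15.8% lower in SX3. In Slike they were 3.6% and 0.61%. The change was therefore not shared by the stretch around it. The authors' deposited tables list the gene in both comparisons, worded as down-regulated; in those tables the wording describes ZS11 relative to SX3 and Zlike relative to Slike.

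The 3 genes matched to At5g45490 did not move together. BnaC02G0401600ZS had 1.03, 0.719 and 0.529 CPM in SX3, against 65.4, 59.4 and 63.0 CPM in ZS11. In the backcross it had 50.7, 61.0 and 59.5 CPM in Slike, against 85.3, 88.2 and 86.1 CPM in Zlike. SX3 stood apart from all other libraries, and Slike lay near ZS11 and below Zlike. The log2 fold change was -6.38 ± 0.12 (edgeR adjusted p = 3.45e-90) for SX3 over ZS11 and -0.60 ± 0.05 (adjusted p = 3.08e-22) for Slike over Zlike.

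Its neighbour in the same cluster, BnaC02G0401800ZS (C02, 49555658 to 49556776), starts 38.2 kb after it ends, on the same strand. It had 15.1, 11.4 and 11.8 CPM in SX3, against 5.35, 6.07 and 6.54 CPM in ZS11. It was higher in SX3 without overlap (log2 1.1 ± 0.12, edgeR adjusted p = 3.24e-15), the opposite direction to the gene beside it. In Slike it had 8.12, 10.0 and 8.42 CPM, against 10.7, 9.75 and 10.9 CPM in Zlike, groups that overlap and were not called apart (log2 -0.23 ± 0.12, adjusted p = 0.126).

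BnaA02G0294200ZS on A02 had 10.1, 11.6 and 7.88 CPM in SX3, against 32.9, 34.1 and 33.7 CPM in ZS11 (log2 -1.78 ± 0.08, edgeR adjusted p = 2.16e-43). In Slike it had 30.9, 27.8 and 27.5 CPM, against 35.6, 32.0 and 35.5 CPM in Zlike (log2 -0.25 ± 0.07, adjusted p = 0.00128). Of its 20 neighbours tested, 11 were called at least 2-fold lower and 2 at least 2-fold higher in SX3, with a median log2 of -1.40, so most of the genes around it were lower too. Around BnaC02G0401600ZS 5 of 20 were lower and 5 higher by this measure, with a median of -0.23. Reads of near-identical copies may have been split between genes, so the sum over the 3 copies was taken too: it came to 23.4 ± 3.04 CPM in SX3 against 102 ± 2.20 in ZS11, and 94.7 ± 4.56 in Slike and 131 ± 1.27 in Zlike (SD, n = 3 each). The sum, like 2 of its 3 copies, was lowest in SX3.

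**Figure D3:**
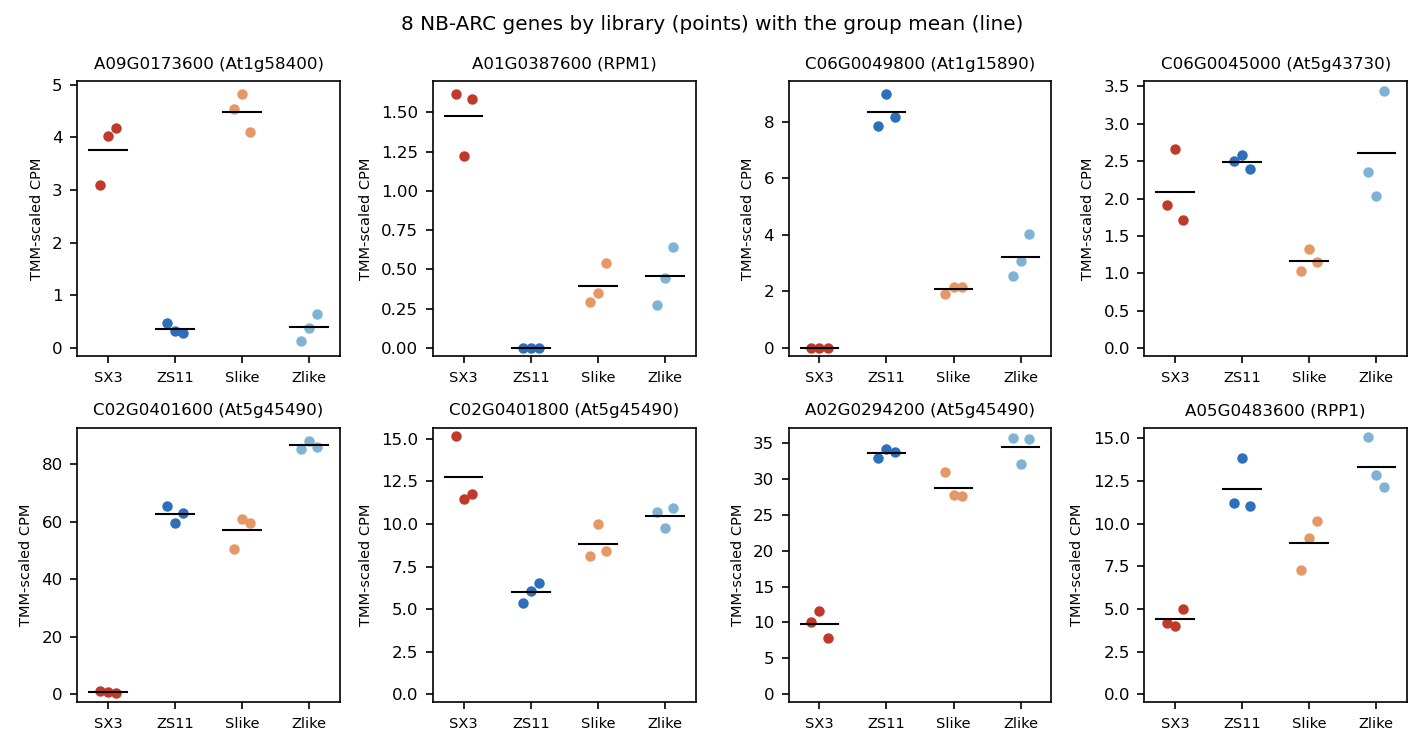
TMM-scaled CPM of 8 NB-ARC genes in each library (points) with group means (lines), in SX3, ZS11, Slike and Zlike, each panel with its own linear axis. BnaA09G0173600ZS is high in SX3 and Slike, BnaC02G0401600ZS and BnaC06G0049800ZS are at or near 0 in SX3 alone, and BnaA01G0387600ZS is at 0 in ZS11 alone.

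Presence in one line with silence in the other was rare. A gene was taken as present at a group mean of 1 CPM and as silent with at most 3 counts summed over a group; these levels took part in the choice of members, so they are described without a test. Of 29 members present in SX3, 1 was silent in ZS11, and of 37 present in ZS11, 1 was silent in SX3. Over all genes the shares were 1.24% and 3.14%. Between Slike and Zlike no member was present in one and silent in the other, in either direction, where 0.338% of all genes were present in Slike and silent in Zlike and 0% the other way.

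The gene silent in SX3 was BnaC06G0049800ZS (C06, 11691575 to 11701926), a coiled-coil gene matched to At1g15890. It had 0 counts in all 3 SX3 libraries and 7.85, 8.97 and 8.15 CPM in ZS11, at least 40.8-fold lower in SX3 against a floor of 3 counts per library. In the backcross it was present in all libraries, with 1.90, 2.17 and 2.16 CPM in Slike and 2.56, 3.06 and 4.02 CPM in Zlike. Both classes lay between the lines, without overlap with each other (log2 -0.62 ± 0.22, edgeR adjusted p = 0.0280). This call was lost when Slike replicate 1, Slike replicate 3 or Zlike replicate 3 was left out (adjusted p of 0.0936, 0.0539 and 0.225), and in DESeq2 (0.118). Its 20 neighbours had a median log2 of 0.10 in SX3 over ZS11, and 2 of them were at least 2-fold lower and 1 higher.

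The gene silent in ZS11 was BnaA01G0387600ZS (A01, 34875299 to 34878234), matched to RPM1, which in Arabidopsis guards the protein RIN4 against bacterial effectors. It had 1.62, 1.22 and 1.59 CPM in SX3 and no counts in any ZS11 library; the level in SX3 was at least 7.65-fold higher. Slike had 0.293, 0.350 and 0.539 CPM and Zlike 0.276, 0.446 and 0.646 CPM, so the backcross classes overlapped and lay between the lines. The other RPM1 gene, BnaC01G0491100ZS on C01 (56260045 to 56262950), stayed below the level for members and showed the reverse: 0 counts in SX3, against 0.989, 0.710 and 0.773 CPM in ZS11. Summed over both, RPM1 reached 1.48 ± 0.220 CPM in SX3 against 0.824 ± 0.146 in ZS11, and 0.699 ± 0.0960 in Slike and 1.00 ± 0.240 in Zlike (SD, n = 3 each). Most neighbours of both copies differed too. Of 20 neighbours of the A01 gene, 17 were at least 2-fold higher and 1 lower in SX3, with a median log2 of 5.37, and 10 were higher and none lower in Slike. Around the C01 gene 12 of 20 were at least 2-fold lower and none higher in SX3, with a median of -1.46. The difference between the lines was therefore shared with neighbouring genes.

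Among the coiled-coil members, the group matched to At1g59620 was the most numerous, with 5 members of 9 NB-ARC genes. BnaA01G0268300ZS had 0.588, 0.935 and 0.471 CPM in SX3, against 6.75, 5.10 and 6.33 in ZS11, and fell by 3.19 on the log2 scale (SE 0.24, edgeR adjusted p = 3.25e-25). Slike had 3.07, 2.94 and 3.50 CPM and Zlike 3.45, 4.01 and 4.67, between the lines and overlapping. On A02 the neighbours BnaA02G0385500ZS and BnaA02G0386000ZS, 11.1 kb apart, were both lower in SX3. The first had 3.01, 3.38 and 3.82 CPM in SX3 against 6.17, 6.45 and 6.05 in ZS11 (log2 -0.85 ± 0.16), and also fell in Slike (log2 -0.46 ± 0.15, adjusted p = 0.0136), a call that was lost without Slike replicate 3 (adjusted p = 0.119) and in DESeq2 (0.0754). The second was lower in SX3 (log2 -1.26 ± 0.27, adjusted p = 1.57e-05) and not called in the backcross (log2 0.05 ± 0.23). BnaC01G0328200ZS was lower in SX3 (log2 -1.01 ± 0.33, adjusted p = 0.00443), with 0.735, 0.647 and 0.765 CPM against 1.74, 1.48 and 1.12 CPM in ZS11. BnaA09G0171000ZS went the other way, with 3.67, 2.73 and 3.65 CPM in SX3 against 1.74, 1.94 and 1.83 in ZS11 (log2 0.88 ± 0.22, adjusted p = 0.000206). The 9 genes together summed to 9.34 ± 0.184 CPM in SX3 and 18.2 ± 1.12 in ZS11, and to 13.2 ± 0.672 in Slike and 16.2 ± 0.518 in Zlike (SD, n = 3 each).

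Of the other coiled-coil members, BnaC01G0295300ZS (RPP13L3) had 2.06, 1.51 and 1.94 CPM in SX3, against 2.44, 3.03 and 2.53 CPM in ZS11. The groups did not overlap (log2 -0.53 ± 0.23, edgeR adjusted p = 0.0378), but the call was lost without SX3 replicate 2 or 3 or ZS11 replicate 2 (adjusted p of 0.150, 0.0543 and 0.148), with upper-quartile scaling (0.0654) and in DESeq2 (0.105). BnaC03G0473200ZS (RPP8L4) reached the level in the lines alone, with 1.64 ± 0.103 CPM in SX3 and 1.31 ± 0.159 in ZS11, and lay at 0.465 ± 0.130 in Slike and 0.906 ± 0.306 in Zlike (SD, n = 3 each), too low to be tested there. The 2 genes matched to At1g50180, which in Arabidopsis recognises conserved effectors of Pseudomonas, were called in neither pair. BnaA08G0027100ZS had 0.822 ± 0.449 CPM in SX3 and 1.1 ± 0.211 in ZS11, and BnaC03G0781900ZS had 1.37 ± 0.309 CPM in SX3 and 1.57 ± 0.513 in ZS11. Nor were BnaC05G0457100ZS (RPPL1), the longest member at 7925 bases, with 7.57 ± 0.634 CPM in SX3 and 8.79 ± 1.04 in ZS11 and called lower in SX3 only without ZS11 replicate 2 (edgeR adjusted p = 0.0439), and BnaC09G0169900ZS (At1g63360), with 1.27 ± 0.237 CPM in SX3 and 1.39 ± 0.136 in ZS11.

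A coiled-coil gene was called between the backcross classes and not between the lines. BnaC06G0045000ZS (C06, 11065694 to 11066635), matched to At5g43730, had 1.02, 1.33 and 1.15 CPM in Slike, against 2.35, 2.04 and 3.45 CPM in Zlike. All Slike libraries lay below all Zlike libraries (log2 -1.14 ± 0.27, edgeR adjusted p = 0.000466). SX3 had 1.91, 2.66 and 1.71 CPM and ZS11 2.50, 2.58 and 2.39, groups that overlap (log2 -0.26 ± 0.23, adjusted p = 0.320). The difference between these effects was called (log2 -0.88 ± 0.36, adjusted p = 0.0312), but not by DESeq2 (adjusted p = 0.0636) and not without Slike replicate 1 or 3, Zlike replicate 3 or SX3 replicate 2 (adjusted p of 0.0725, 0.0545, 0.155 and 0.134).

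None of the 13 TIR members was called higher in a mutant type, where 33.4% of all genes were called higher in SX3 and 13.8% in Slike. In SX3, 6 were called lower (46.2%, against 35.9% of all genes), and in Slike 2 were (15.4%, against 13.4%, a share near that of all genes). RPP1 was the largest match group here, with 5 members of 11 NB-ARC genes. BnaA05G0483600ZS had 4.19, 4.03 and 5.00 CPM in SX3, against 11.2, 13.9 and 11.0 CPM in ZS11 (log2 -1.43 ± 0.13, edgeR adjusted p = 8.32e-20). It also fell in Slike, with 7.31, 9.16 and 10.2 CPM against 15.1, 12.9 and 12.1 CPM in Zlike (log2 -0.58 ± 0.11, adjusted p = 1.01e-05). Of its 20 neighbours tested, 10 were called at least 2-fold lower and 5 at least 2-fold higher in SX3, with a median log2 of -0.71. BnaC08G0472400ZS fell in both pairs too, by 0.59 (SE 0.14, adjusted p = 6.51e-05) in SX3 and by 0.46 (SE 0.13, adjusted p = 0.00310) in Slike on the log2 scale. In both genes the groups of each pair did not overlap. Of the other 3 RPP1 members, BnaC03G0727600ZS was called lower in SX3 with overlapping libraries (log2 -0.51 ± 0.21, adjusted p = 0.0258), a call lost without SX3 replicate 3, ZS11 replicate 1 or ZS11 replicate 3 (adjusted p of 0.218, 0.162 and 0.152) and in DESeq2 (0.109). BnaC09G0488400ZS and BnaC09G0544400ZS were not called in either pair, though BnaC09G0488400ZS was called lower in SX3 without SX3 replicate 2 (log2 -0.46, adjusted p = 0.0357). Summed over all 11 genes, RPP1 lay at 16.7 ± 1.42 CPM in SX3 and 29.2 ± 1.47 in ZS11, and at 24.1 ± 0.896 in Slike and 30.7 ± 1.93 in Zlike (SD, n = 3 each).

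Of the further TIR members, 3 were called lower in SX3. BnaA07G0335800ZS (At4g11170) had 0.294, 0.719 and 0.294 CPM in SX3, against 2.73, 2.84 and 2.39 CPM in ZS11 (log2 -2.61 ± 0.33, edgeR adjusted p = 2.70e-12). BnaA01G0024400ZS, matched to CSA1, a TIR receptor linked in Arabidopsis to shade and defence responses, had 0.955, 0.863 and 0.294 CPM in SX3 against 1.63, 1.81 and 2.18 in ZS11 (log2 -1.44 ± 0.33, adjusted p = 4.49e-05). BnaC09G0161500ZS, matched to RLM1A, named for resistance of Arabidopsis to the blackleg fungus Leptosphaeria maculans, had 0.441, 1.15 and 0.647 CPM in SX3 against 1.51, 1.55 and 1.97 in ZS11 (log2 -1.15 ± 0.32, adjusted p = 0.000977). None of these 3 was called in the backcross, where the log2 fold changes were -0.46 ± 0.28, -0.20 ± 0.31 and 0.36 ± 0.32. Around BnaA07G0335800ZS 8 of 20 neighbours were at least 2-fold lower and 1 higher in SX3, with a median log2 of -0.74. Around BnaA01G0024400ZS 0 of 20 were lower and 2 higher (median 0.04). Around BnaC09G0161500ZS 4 of 20 were lower and 1 higher (median 0.003), near the shares of all genes, 15.8% lower and 10.5% higher. The RPS4 gene BnaC07G0238800ZS, a TIR receptor for bacterial effectors in Arabidopsis, was not called in either pair, at 6.95 ± 1.02 CPM in SX3 and 7.79 ± 0.638 in ZS11, and at 8.39 ± 0.276 in Slike and 8.17 ± 0.971 in Zlike (SD, n = 3 each). The RPS6 gene BnaC04G0394800ZS was not called in either pair (log2 -0.54 ± 0.34 in SX3 over ZS11 and -0.17 ± 0.33 in Slike over Zlike), but was called lower in SX3 without ZS11 replicate 3 (log2 -0.92, edgeR adjusted p = 0.0167). No call was made in either pair for BnaC02G0270600ZS (At4g11170; log2 0.44 ± 0.29 and 0.01 ± 0.28) and for BnaC02G0349900ZS (N; log2 -0.75 ± 0.36 and 0.04 ± 0.35). BnaC02G0349900ZS missed the threshold in SX3 over ZS11 with an adjusted p of 0.0542 and passed it without SX3 replicate 3 (0.00569) or ZS11 replicate 2 (0.0253).

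The helper receptors showed small differences. BnaC07G0307600ZS, matched to the NRG1-type gene At5g66910, had 23.4, 24.6 and 23.3 CPM in SX3, against 21.9, 23.0 and 18.0 CPM in ZS11. The groups did not overlap, and the change was small (log2 0.18 ± 0.08, edgeR adjusted p = 0.0278), with the call lost without SX3 replicate 2 or ZS11 replicate 3 (adjusted p of 0.0985 and 0.362) and in DESeq2 (0.0983). In the backcross it was not called (log2 0.01 ± 0.08). Its neighbour in the C07 cluster, BnaC07G0307800ZS, lies 25.7 kb further along, has the same match and had 1.73 ± 0.221 CPM in SX3 and 1.92 ± 0.307 in ZS11. It was not called in the backcross (log2 -0.52) except without Slike replicate 3 (log2 -1.10, edgeR adjusted p = 0.0110). BnaA06G0381700ZS, the last NRG1-type member, had 6.95, 5.74 and 6.40 CPM in Slike, against 5.39, 3.63 and 4.38 CPM in Zlike (log2 0.52 ± 0.15, adjusted p = 0.00649), a call lost without Zlike replicate 2 (0.0919) and in DESeq2 (0.0509). In SX3 it was not called (log2 0.27 ± 0.18). The ADR1-type gene BnaC01G0052700ZS had 3.23, 2.95 and 2.24 CPM in SX3 against 3.55, 4.26 and 4.85 in ZS11 (log2 -0.59 ± 0.19, adjusted p = 0.00411), not called without SX3 replicate 3 (0.0615), and not called in the backcross (log2 -0.07 ± 0.18).

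Of the members without an assigned class, the 2 genes with no protein match had close means in the 4 groups. BnaC09G0391400ZS had 41.2 ± 1.68 CPM in SX3 and 40.5 ± 2.98 in ZS11, and 39.1 ± 1.12 in Slike and 39.3 ± 2.63 in Zlike. BnaA10G0121700ZS had 35.3 ± 1.16 CPM in SX3 and 34.0 ± 1.06 in ZS11, and 38.5 ± 1.05 in Slike and 36.6 ± 1.90 in Zlike (SD, n = 3 each). Their log2 fold changes lay between 0.00 and 0.07 in size, with SE of 0.05 to 0.06. The At1g72960 match BnaC06G0286800ZS had 1.47, 1.94 and 2.18 CPM in SX3, against 0.814, 0.323 and 0.141 CPM in ZS11 (log2 2.06 ± 0.36, edgeR adjusted p = 1.24e-07). Slike and Zlike both resembled SX3, with means of 1.71 ± 0.103 and 1.60 ± 0.620 CPM (SD, n = 3 each). Both members among the 3 genes matched to At4g19060 (BnaA01G0100400ZS and BnaC01G0122600ZS) were not called in either pair, apart from BnaC01G0122600ZS, called higher in SX3 with upper-quartile scaling (log2 0.42, edgeR adjusted p = 0.0428). Their means were higher in the lines, from 2.68 to 3.76 CPM, than in the backcross classes, from 1.31 to 2.20 CPM, a contrast that was not tested.

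The difference of the effects, Slike over Zlike less SX3 over ZS11, was called for 16 of 41 members (39.0%), 10 higher and 6 lower, and for 53.3% of 51650 genes tested, 30.1% higher and 23.2% lower. Past a fold of 2, 8 members were higher and 5 lower, against 14.9% and 7.66% of all genes. Of the 38 members that reached the level in each pair on its own, 14 were called, 10 higher and 4 lower. A positive value means that the log2 fold change was higher in the backcross. The 14 members at least 2-fold apart and called between the lines were placed on the scale that the lines span. The Slike mean lay between the lines in 13 and the Zlike mean in 11, and both did in 10. The Slike mean was nearer to ZS11 in 7 and the Zlike mean in 10, both in 5. These counts are a description, since the genes were chosen for their distance between the lines.

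NB-ARC genes were unevenly spread over the chromosomes. The C subgenome held 96 of the 126 genes (76.2%), though it holds 54.2% of all placed genes, and the A subgenome held 30 (23.8%). A larger share of the A genes was expressed: 14 of 30 (46.7%) were members, against 27 of 96 (28.1%) on C. Over all genes, 53.1% on A and 49.8% on C reached the level. C09 held 21 NB-ARC genes with 5 members and C06 held 14 with 5 members. C03 held 12 with 3, C01 and C02 held 11 with 4 each, and A01 held 8 with 4. A03 and A04 held none. These counts cover only genes with NB-ARC as their single Pfam entry. The 362 other genes named disease resistance proteins were not counted by chromosome.

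**Figure D4:**
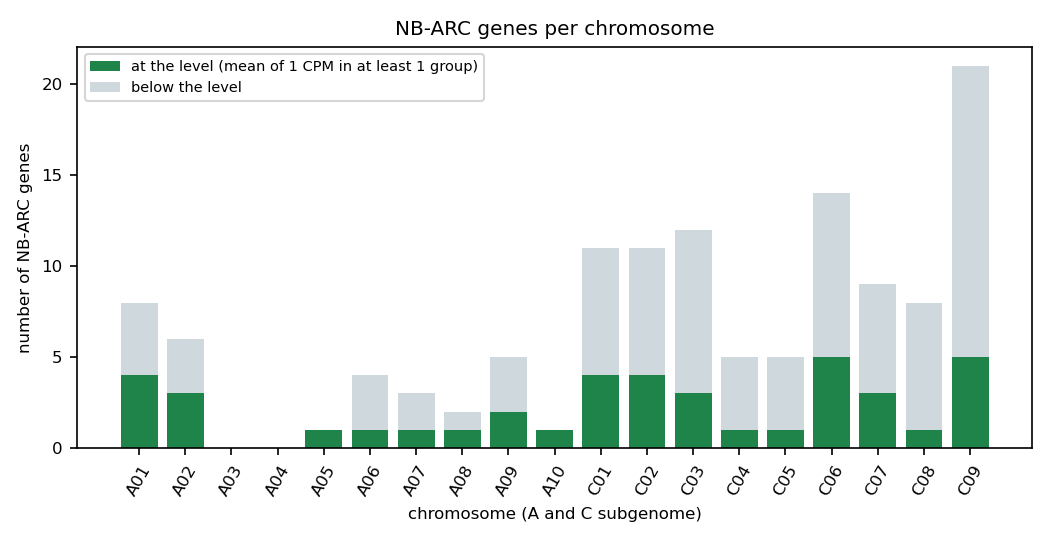
Number of NB-ARC genes on each chromosome of the A and C subgenomes, split into the 41 at the level for members (green) and the 85 below it (grey). C09 has the tallest bar with 21 genes, 5 of them members, and A03 and A04 have none.

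Clusters were formed from neighbouring NB-ARC genes with at most 200 kb and at most 8 other genes between them. This gave 21 clusters with 52 of the 126 genes (41.3%), 4 on A and 17 on C. They were small: 14 held 2 genes, 5 held 3, and 1 each held 4 and 5. Of 31 neighbour pairs within clusters, 24 lay on the same strand and 13 had no other gene between them, with a median gap of 10.6 kb. The NB-ARC entry covers only part of the receptor genes in the table. With the 362 other genes named disease resistance proteins added, a rule chosen after the data were seen, there were 94 clusters. They held 316 genes, 66.1% of this wider set, and 26 of the 41 members (63.4%), a similar share.

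The share in clusters was similar for genes at the level and below it. Of the members, 16 of 41 (39.0%) lay in clusters, and of the NB-ARC genes below the level 36 of 85 (42.4%), made up of 19 of the 48 with counts (39.6%) and 17 of the 37 with 0 counts in all libraries (45.9%). Members in clusters had a median of 1.54 FPKM and those outside 1.1 FPKM. By cluster, 9 held no member, 8 held 1 and 4 held 2, where 14 of the 21 clusters had only 2 genes. Over all NB-ARC genes 32.5% were members. Of the 36 cluster genes below the level, the highest reached 0.809 CPM in any group. The cluster of 5 genes on C07 (37868137 to 38286323), with matches to LAZ5, DAR4, CSA1 and RPS4, held the RPS4 gene at 8.39 CPM in its highest group, while none of its other 4 genes passed 0.0425 CPM. BnaC06G0049800ZS, at 8.33 CPM in ZS11, lay 25.3 kb from a gene of at most 0.0974 CPM. The 4 RPP13-type genes side by side on A01 reached 0.304 CPM at most.

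The 4 clusters with 2 members were the pairs on A02 (33719308 to 33734473), C02 (49516351 to 49556776) and C07 (44947480 to 44976440), in which both genes share a match, and a group of 3 genes on C06 (48663816 to 48718036). Their member pairs behaved differently. The A02 pair was lower in SX3 in both genes, the C02 pair went in opposite directions, and in the C07 pair the helper BnaC07G0307600ZS was slightly higher in SX3 while its neighbour was not called. On C06, BnaC06G0394900ZS (N) and BnaC06G0395000ZS (At1g72960), 1.95 kb apart, were not called in either pair of groups, though BnaC06G0395000ZS was called lower in SX3 without ZS11 replicate 3 (log2 -0.86, edgeR adjusted p = 0.0258). Called members were found inside and outside clusters, 9 of 16 (56.2%) and 12 of 25 (48%) in SX3 against ZS11, where 69.3% of all genes were called, and 4 of 16 (25%) and 5 of 23 tested (21.7%) in Slike against Zlike, where 27.2% were.

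The signalling genes that act with these receptors were read from a list of 240 genes by match name. More of them were lower than higher in SX3, among them hub genes of the TIR receptors. Of 115 tested, 25 were called higher (21.7%, against 33.4% of all genes) and 52 lower (45.2%, against 35.9%) in SX3, with a median log2 of -0.18. In Slike 11 of 113 were higher (9.73%, against 13.8%) and 14 lower (12.4%, against 13.4%), with a median of -0.04; DESeq2 called 6 lower, and 9 were lower without Slike replicate 1.

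Counts by role are set against all genes, of which 33.4% were called higher and 35.9% lower in SX3, and 13.8% higher and 13.4% lower in Slike. The TIR hub genes (EDS1, PAD4, SAG101) were lower in SX3 in 11 of 19 tested (57.9%) and higher in 3 (15.8%), and in Slike 4 of 17 were lower (23.5%) and 1 higher (5.88%). EDS1B on C01 (BnaC01G0288600ZS) had 4.77 ± 0.325 CPM in SX3 and 20.2 ± 1.57 in ZS11 (log2 -2.07 ± 0.11), and EDS1B on A01 (BnaA01G0223900ZS) 4.18 ± 0.846 and 17.0 ± 0.252 CPM in the same lines (log2 -2.01 ± 0.12). In the backcross the C01 gene had 5.52 ± 0.539 CPM in Slike and 6.31 ± 0.409 in Zlike. The A01 gene had 6.22 ± 0.818 CPM in Slike and 7.68 ± 0.383 in Zlike. Neither was called there (edgeR adjusted p of 0.376 and 0.0891), and both classes lay nearer to SX3 than to ZS11. EDS1B on C08 (BnaC08G0285000ZS) fell in both pairs, by 0.95 in SX3 and by 0.58 in Slike on the log2 scale. PAD4 on A04 (BnaA04G0064400ZS) had 31.7 ± 1.27 CPM in SX3 and 52.1 ± 2.62 in ZS11 (log2 -0.71 ± 0.05), and was not called in Slike. PAD4 on A09 (BnaA09G0487900ZS) went the other way in both pairs, with 39.0 ± 2.85 CPM in SX3 and 29.3 ± 0.0971 in ZS11 (log2 0.41 ± 0.06, edgeR adjusted p = 7.55e-10), and 20.3 ± 0.737 in Slike and 14.3 ± 1.5 in Zlike (log2 0.51 ± 0.09, adjusted p = 7.83e-07). The other two genes higher in SX3 were PAD4 on C08 (BnaC08G0325500ZS), with 1.16 ± 0.426 CPM in SX3 and 0.195 ± 0.0722 in ZS11, and SAG101 on C03 (BnaC03G0070200ZS), with 3.35 ± 0.367 CPM in SX3 and 2.21 ± 0.278 in ZS11.

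Among partners and guarded proteins (RIN4, PBS1, NDR1), 6 of 23 were higher (26.1%) and 10 lower (43.5%) in SX3, and 2 of 21 were higher (9.52%) and 1 lower (4.76%) in Slike. PBS1, a cytoplasmic protein kinase, rose at its A10 copy (BnaA10G0186500ZS) in both pairs, with 17.8 ± 1.24 CPM in SX3 and 7.51 ± 0.253 in ZS11, and 12.9 ± 0.895 in Slike and 7.11 ± 0.850 in Zlike. The C08 copy (BnaC08G0261000ZS) was also higher in both pairs, with 10.2 ± 0.741 CPM in SX3 and 5.39 ± 0.0318 in ZS11, and 10.5 ± 1.13 in Slike and 7.01 ± 0.438 in Zlike. The C02 copy (BnaC02G0053400ZS) was lower in SX3, with 0.545 ± 0.102 CPM in SX3 and 6.71 ± 0.360 in ZS11. It was not called in the backcross, with 3.37 ± 1.04 CPM in Slike and 3.99 ± 0.172 in Zlike. Of the receptor chaperones (SGT1, RAR1, HSP90), 5 of 10 were lower and 1 higher in SX3, and 4 of 12 were lower (33.3%) and none higher in Slike. RAR1 on A10 (BnaA10G0087800ZS) fell by 1.37 in SX3 and by 0.54 in Slike on the log2 scale, and RAR1 on A02 (BnaA02G0148300ZS) by 1.78 and by 0.36. RAR1 on C02 (BnaC02G0190300ZS) was slightly higher in SX3 (log2 0.20 ± 0.09, edgeR adjusted p = 0.0443) and not called in Slike. Negative regulators were lower in 5 of 13 (38.5%) and higher in none in SX3, and not called in Slike.

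Genes of salicylate synthesis, the defence hormone made after receptor activation, moved both ways: 5 of 18 were higher (27.8%) and 8 lower (44.4%) in SX3, and 4 were higher and 4 lower in Slike (22.2% each). ICS1, the isochorismate synthase, had 0 counts in SX3 at its C01 copy (BnaC01G0474900ZS), against 11.4 ± 0.773 CPM in ZS11, and rose at its C02 copy (BnaC02G0284200ZS), with 12.8 ± 0.965 CPM in SX3 and 5.19 ± 1.05 in ZS11. Likewise the ICS1 copy on A02 (BnaA02G0212800ZS) had 0 counts in SX3, against 3.53 ± 0.117 CPM in ZS11, and the one on A06 (BnaA06G0081900ZS) had 3.16 ± 0.460 CPM in SX3 and 0 counts in ZS11. In the backcross the C01 copy had 7.21 ± 0.649 CPM in Slike and 11.2 ± 0.603 in Zlike. The C02 copy had 8.40 ± 0.608 and 5.95 ± 1.21 CPM in these classes, the A02 copy 3.17 ± 0.344 and 3.89 ± 0.562. The A06 copy had 1.25 ± 0.369 CPM in Slike and 0.270 ± 0.0519 in Zlike. Whether genes around the named signalling genes differed as well was not tested. GH3.12 on C09 (BnaC09G0527400ZS), known as PBS3, which acts on isochorismate in salicylate synthesis, was higher in both pairs, with 3.25 ± 0.546 CPM in SX3 and 0.335 ± 0.108 in ZS11, and 2.75 ± 0.105 in Slike and 0.187 ± 0.154 in Zlike. The other GH3.12 gene tested, on C06 (BnaC06G0072900ZS), was lower in both pairs, with 1.57 ± 0.206 CPM in SX3 and 8.52 ± 0.234 in ZS11, and 5.96 ± 0.850 in Slike and 8.11 ± 0.564 in Zlike. Of the salicylate receptors and partners, 6 of 19 were higher (31.6%) and 9 lower (47.4%) in SX3, and 2 were higher (10.5%) and none lower in Slike. TGA5 on C02 (BnaC02G0026000ZS), a transcription factor that works with NPR1, had 0.132 ± 0.0539 CPM in SX3 and 13.3 ± 1.24 in ZS11. It was not called in the backcross, with 8.31 ± 1.13 CPM in Slike and 10.2 ± 0.685 in Zlike. The TGA5 copy on A02 (BnaA02G0024200ZS) was higher in both pairs, with 18.9 ± 1.04 CPM in SX3 and 10.8 ± 1.05 in ZS11, and 15.3 ± 0.351 in Slike and 11.8 ± 0.944 in Zlike. Outputs were called higher in 4 of 13 and lower in 4 in SX3 (30.8% each), and higher in 2 (15.4%) and lower in 1 (7.69%) in Slike, shares close to those of all genes (SD, n = 3 for all values).

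**Figure D5:**
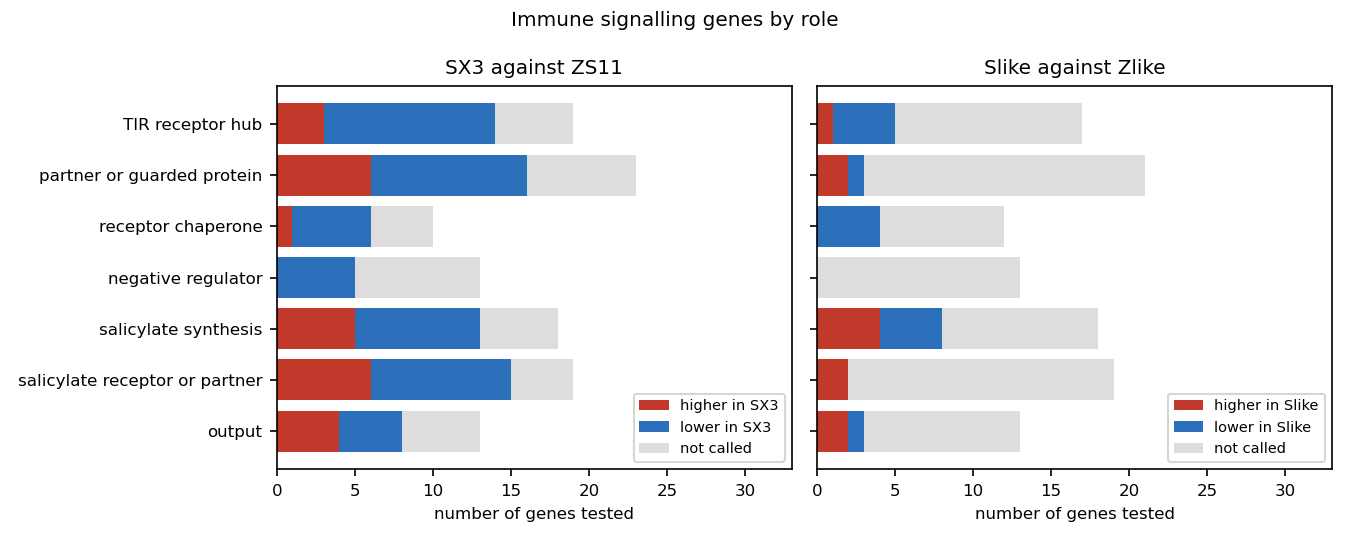
Number of immune signalling genes tested in each role, split into those called higher (red), lower (blue) and not called (grey) by edgeR, for SX3 against ZS11 (left) and Slike against Zlike (right). The TIR receptor hub has 11 genes lower and 3 higher in SX3.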

How the data were processed

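The deposited table holds whole-number read counts per gene for 12 libraries, not normalized, each followed by an FPKM value, per the file headers. Recomputing FPKM from the deposited count, length and total gave the authors' values to within 8.4e-15 in relative terms, so FPKM was used for levels between genes and was not tested. The submitters' processing notes name fastp, HISAT2 and featureCounts without versions. Genome build, strand setting and the handling of reads with several matches: not given in the sources used here, so values of near-identical, overlapping or antisense genes are uncertain. Coordinates, Pfam entries and match names come from the deposited table, and a match names a family, not an exact counterpart. From the authors' deposited tables of comparisons only the direction words were taken.

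The count test was edgeR 4.0.16 under R 4.3.3: filterByExpr by group, TMM scaling, and a two-sided quasi-likelihood F test (glmQLFit, glmQLFTest), adjusted by Benjamini-Hochberg over the genes kept, at a threshold of 0.05. Each pair of groups was fitted on its own 6 libraries, and the difference of the effects on all 12. SE follow from each fold change divided by the root of its test statistic. Where a group had 0 counts, the fold is a bound against 3 counts per library. Levels are TMM-scaled CPM, as mean ± SD. The procedure was tested on simulated data. Libraries of the same group differed beyond counting noise, with a chi-square averaged over genes of 1.35 to 1.47 between pairs of libraries. Each library was entered as a replicate.

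The members and lists were chosen with earlier results of these data known. Genes are named by rule: the 10 members with the highest FPKM, up to 6 higher and 6 lower called members per comparison with at least a 2-fold change and no overlap, the 8 with the smallest p in the difference of the effects, presence genes, helper-class genes, members of the 4 clusters with the most members, known receptors, and the 3 genes on each side of the level. Further members called in a comparison, the other members of a match group, and the signalling genes given with values were chosen after their values were seen. Receptor classes were planned from Pfam, which lists 1 domain per gene, and were taken from the match name instead. Alternatives were upper-quartile scaling, DESeq2 1.42.0, no filter on low counts, a fit of all 12 libraries, a replicate block, other levels and cluster limits, and leaving out each library. A RefSeq gene table had no matching IDs and was not used here.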

Additional observations from a re-analysis of the deposited data

Results flagged for a closer look

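The fold change between mutant and wild-type groups differed between the pairs for 14 of the 38 members that reached the level in each pair on its own. Calls are by edgeR's test of the difference of the effects with Benjamini-Hochberg adjustment. Over all genes tested the share called was larger, at 53.3%. Since SX3 and ZS11 also differ in genetic background, a difference cannot be assigned to the mutant type. Values are log2 of Slike over Zlike less log2 of SX3 over ZS11, from 12 libraries. The largest positive differences, where the gene was low in SX3 and much less so in Slike, were 5.78 for BnaC02G0401600ZS (adjusted p = 7.75e-70), at least 4.72 for BnaC06G0049800ZS against the floor of 3 counts, 2.85 for BnaA01G0268300ZS and 2.15 for BnaA07G0335800ZS. Smaller positive differences were 1.53 for BnaA02G0294200ZS, 1.51 for BnaC09G0161500ZS, 1.3 for BnaA02G0386000ZS, 1.24 for BnaA01G0024400ZS, 0.85 for BnaA05G0483600ZS and 0.71 for BnaC03G0727600ZS. Negative differences were -1.96 for BnaC06G0286800ZS, -1.34 for BnaC02G0401800ZS, -1.05 for BnaA09G0171000ZS and -0.88 for BnaC06G0045000ZS. All adjusted p-values of these 14 lay between 7.75e-70 and 0.0467. The difference missed the threshold for BnaA01G0024400ZS without SX3 replicate 3 (adjusted p = 0.140). That of BnaC06G0045000ZS did so in DESeq2 (0.0636) and, by edgeR, without Slike replicate 1 or 3, Zlike replicate 3 or SX3 replicate 2 (0.0545 to 0.155). For BnaC03G0727600ZS it did so with upper-quartile scaling (0.0699), in DESeq2 (0.138) and without any 1 of 7 libraries (Slike 1 and 2, Zlike 2 and 3, SX3 3, ZS11 1 and 3; 0.0582 to 0.177).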

How the results depend on the processing

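Each count of called members and signalling genes stayed within 1.5 times its main value under upper-quartile scaling, no filter on low counts, and one fit of all 12 libraries. The exceptions among other settings were these. DESeq2 called 1 member higher in Slike in place of 2, also among members chosen by the lines alone, and 6 signalling genes lower in place of 14. With a group mean of 2 CPM as the level, 3 members in place of 6 had a lower difference of the effects, and with presence set at 2 CPM, 0 members were present in SX3 and silent in ZS11, since the RPM1 gene stays below that level. Adding other disease resistance genes, chosen after seeing the data, put 26 members in clusters in place of 16. The share of the whole set in clusters was then 66.1% in place of 41.3%. Leaving out 1 library gave 5 to 6 members higher and 13 to 16 lower in SX3 (4 to 5 and 13 to 16 among those chosen in the backcross), 1 to 2 higher and 6 to 7 lower in Slike, the same among those chosen in the lines, 9 to 11 higher and 4 to 6 lower differences of the effects, and 9 to 14 signalling genes lower in Slike. Without Zlike replicate 2, 1 member was higher in Slike. Same-numbered libraries did not deviate together (correlations of -0.0046 to 0.017), so replicate numbers share only a number; with a replicate block 6 members were higher and 16 lower in SX3 and 2 higher and 7 lower in Slike, the added call in SX3 being BnaC02G0349900ZS (log2 -0.82, edgeR adjusted p = 0.0413). No called member changed sign; 17 of 21 calls between the lines, 6 of 9 in the backcross and 12 of 16 differences were kept in all of these fits. The median count per library of a member starts at 6, and how far depth limits the calls was not tested.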
